A study of Mus musculus with 7 samples.

Results

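The 10 genes described here act in the growing hair follicle of mouse skin: the secreted signal Shh, the transcription factors Lef1, Msx2, Dlx3, Hoxc13, Foxn1 and Ovol1, and the differentiation genes Gprc5d, Tchh and Padi3. They were picked out by name, as the rows of the value table with these symbols in the platform annotation. The choice of names was made with earlier results of these data known. All 10 were found, each with 1 probe set, among 23185 genes with a symbol. Expression was measured on Affymetrix arrays in whole lesional skin, with 1 array per sample, in 4 samples from ox40l-/- mice (knockout) and 3 from ox40l+/+ mice (wild type). Both genotypes were male, C57BL/6 and 9 weeks old, and both had been injected with bleomycin for 3 weeks, an agent used to induce skin fibrosis. OX40L, encoded by Tnfsf4, is a costimulatory ligand for T cells. The series title concerns OX40L and protection from fibrosis, and the comparison asks how gene expression in treated skin differs with the genotype. The labels name neither the body site nor the deleted part of the gene, and leave unstated whether every sample is from a separate animal. Skin without bleomycin was not analysed here.

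A hair follicle alternates between growth and rest. In the growing follicle the matrix, a collar of dividing cells at the base, receives Wnt, BMP and Sonic hedgehog signals and gives rise to the hair shaft and to the inner root sheath that moulds it. Lef1 carries the Wnt signal to DNA, Msx2, Dlx3 and Foxn1 act in matrix cells as they leave division, and Hoxc13 and Foxn1 are needed for hair keratin expression, their loss giving brittle hair or the nude coat. Trichohyalin, the product of Tchh, hardens the inner root sheath and medulla once the enzyme encoded by Padi3 has converted its arginines to citrulline and transglutaminases have cross-linked it.

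Of the 10 genes, 6 had entries in the RefSeq promoter table (build GRCm38.p6), namely Tchh, Padi3, Gprc5d, Msx2, Foxn1 and Lef1. Dlx3, Hoxc13, Ovol1 and Shh had none. All 6 genes with entries were highest on wild type replicate 1, and the promoters of Foxn1 and Lef1 are not printed. Those of the 3 differentiation genes and of Msx2 are shown as the 250 bases before and 50 bases from the start site. Each is given 5′ to 3′ on the gene's strand. They lie at chr3:93442080-93442379 on the plus strand (Tchh) and, on the minus strand, at chr4:140810599-140810898 (Padi3), chr6:135118234-135118533 (Gprc5d) and chr13:53472731-53473030 (Msx2). Capitals mark matches on either strand to the letters searched, TATAAA (the TATA box), CTTTGAA and CTTTGAT (the TCF/LEF motif), TAATTA (a homeodomain motif) and CCAAT.
Tchh: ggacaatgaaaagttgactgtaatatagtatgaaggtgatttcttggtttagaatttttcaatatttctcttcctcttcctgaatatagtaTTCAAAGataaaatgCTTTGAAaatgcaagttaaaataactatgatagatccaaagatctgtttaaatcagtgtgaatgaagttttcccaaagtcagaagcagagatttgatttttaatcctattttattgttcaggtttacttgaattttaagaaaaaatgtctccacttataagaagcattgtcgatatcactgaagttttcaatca
Padi3: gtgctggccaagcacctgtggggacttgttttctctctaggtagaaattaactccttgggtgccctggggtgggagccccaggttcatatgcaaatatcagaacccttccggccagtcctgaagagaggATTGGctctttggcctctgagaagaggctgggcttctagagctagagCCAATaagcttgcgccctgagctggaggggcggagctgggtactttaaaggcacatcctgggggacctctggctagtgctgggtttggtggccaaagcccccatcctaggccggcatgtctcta
Gprc5d: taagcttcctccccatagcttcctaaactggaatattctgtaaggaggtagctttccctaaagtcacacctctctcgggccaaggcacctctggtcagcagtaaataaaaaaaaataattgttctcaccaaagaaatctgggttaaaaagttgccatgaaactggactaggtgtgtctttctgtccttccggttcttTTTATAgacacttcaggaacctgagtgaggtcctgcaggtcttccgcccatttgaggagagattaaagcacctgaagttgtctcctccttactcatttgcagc
Msx2: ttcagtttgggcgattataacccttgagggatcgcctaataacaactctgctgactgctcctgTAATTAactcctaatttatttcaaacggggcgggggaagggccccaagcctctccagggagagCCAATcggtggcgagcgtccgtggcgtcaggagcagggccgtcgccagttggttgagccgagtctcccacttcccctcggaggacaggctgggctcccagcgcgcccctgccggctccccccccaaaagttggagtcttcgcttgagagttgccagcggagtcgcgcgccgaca

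The Tchh window held 2 matches to CTTTGAA, whose first bases lay 159 and 144 bases before the start site. CTTTGAA occurred in 5.14% of the 32851 promoters of the table and CTTTGAT in 3.73%. The Gprc5d window held TATAAA on the opposite strand, 53 bases before the start, and 13.6% of all promoters held it. Padi3 held CCAAT at 121 and 74 bases before the start, and this short motif was present in 37.4% of promoters. Msx2 and Foxn1 each held TAATTA, at 187 and 29 bases before the start, against 5.29% of promoters, and both also held CCAAT. Of the 4 Lef1 promoters, 1 held TATAAA. These are matches of letters in a fixed window and were not tested for binding.

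The arrays were not alike. Over the named genes, array medians ran from 3.45 to 3.73 on the log2 scale, and the values were most spread on wild type replicate 1 (SD 1.67) and least on wild type replicate 3 (SD 1.17), with the other 5 arrays between 1.32 and 1.42. In 25.3% of all genes wild type replicate 1 was the highest of the 7 arrays, and at least 1 log2 unit above each of the other 6 in 5.63%. Markers of skin were present on every array: Krt14, a keratin of basal keratinocytes, lay between 9.54 and 10.94, Krt10, a keratin of the suprabasal epidermis, between 8.14 and 10.53, and Dcn, a dermal proteoglycan, between 8.29 and 10.09. Tnfsf4 itself was at 2.95 ± 0.27 (SD, n = 4) in the knockout samples and at 2.93 ± 0.63 (SD, n = 3) in the wild type samples, and differed by 0.02 (SE 0.31, limma adjusted p = 0.9995). Where its probes lie relative to the deleted part is unknown here, so they check nothing about the labels.

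Of the 10 genes, 9 were highest on wild type replicate 1, each by at least 1 log2 unit over every other array, and 7 by at least 2 log2 units. Gaps of that size were present in 5.63% and 0.841% of all genes. The median of the 10 gaps to the middle of the other 6 arrays was 2.62, against -0.10 over all genes. Shh was the exception. On the other 6 arrays, 9 of the 10 genes lay within ranges of at most 1.12 log2 units, and Tchh spread over 3.63. For 4 of the 10 the middle value there was below the middle of those arrays' medians. These were Hoxc13 (3.28), Msx2 (2.90), Gprc5d (3.29) and Ovol1 (3.53). No detection calls were used, so whether these genes were detected on those arrays is not known, and their folds depend on that low level. Whole skin was measured on 1 array per sample. More follicle cells, more RNA per cell and an effect of the array itself therefore cannot be told apart on wild type replicate 1.

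**Figure D1:**
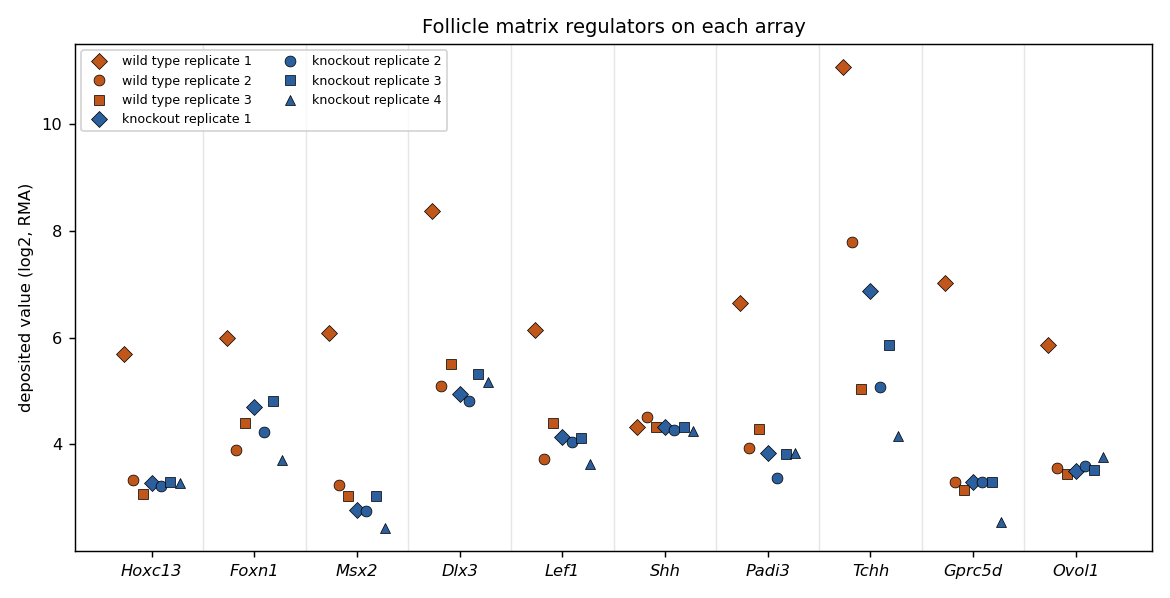
Deposited log2 values of the 10 genes on each of the 7 arrays, with wild type in orange, knockout in blue and the replicate number as the marker shape. Wild type replicate 1 stands above the other 6 arrays in 9 genes, while for Shh all arrays lie between 4.26 and 4.51.

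Shh, the hedgehog ligand that drives matrix growth, was the least variable of the 10. Its log2 values were 4.33, 4.51 and 4.33 on wild type replicates 1 to 3 and 4.33, 4.28, 4.33 and 4.26 on knockout replicates 1 to 4. The genotypes overlapped, and 4 arrays held exactly the same value, which median polish in RMA can return. Whether its 1 probe set follows changes in the transcript was not tested. Knockout minus wild type was -0.09 (SE 0.12; limma adjusted p = 0.9995), with a 95% interval of -0.38 to 0.20.

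Lef1, the nuclear effector of Wnt signalling in the matrix and its precursors, had values of 6.14, 3.72 and 4.41 in wild type and 4.13, 4.05, 4.12 and 3.63 in knockout. The first and the third wild type arrays lay above all knockout arrays, and the second lay within the knockout range. The difference was -0.77 (SE 0.52; limma adjusted p = 0.9995), with a 95% interval of -2.01 to 0.46.

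Msx2, a homeodomain factor downstream of BMP, was at 6.08, 3.24 and 3.03 in wild type and at 2.77, 2.75, 3.03 and 2.44 in knockout. The genotypes met at 3.03, the value that wild type replicate 3 and knockout replicate 3 shared. The difference of -1.37 (SE 0.70, 95% interval -3.02 to 0.27) had an adjusted p of 0.9995 in limma. Dlx3, a homeodomain factor of hair shaft and inner root sheath precursors, was at 8.38, 5.10 and 5.51 in wild type and at 4.95, 4.81, 5.33 and 5.17 in knockout. Here 1 wild type array stood 9.46-fold above the middle of the other 6, and the remaining values overlapped. Dlx3 differed by -1.26 (SE 0.73; limma adjusted p = 0.9995), with a 95% interval of -2.98 to 0.45.

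Hoxc13, the homeodomain regulator of hair keratins, was flat apart from 1 array, and on the others it lay below the array median. It was at 5.71 on wild type replicate 1 and at 3.33 and 3.07 on replicates 2 and 3, while knockout values were 3.28, 3.22, 3.30 and 3.28, with an SD of 0.04 (n = 4). The other 2 wild type arrays thus lay on either side of all knockout arrays. The genotype difference was -0.76 (SE 0.59; limma adjusted p = 0.9995), with a 95% interval of -2.15 to 0.63.

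Foxn1, the winged-helix factor mutated in nude mice, showed the smallest excess among the 9 genes. Its values were 5.99, 3.90 and 4.41 in wild type and 4.71, 4.23, 4.82 and 3.70 in knockout, so that 2 knockout arrays exceeded wild type replicate 3. The first wild type array was 3.19-fold above the middle of the other 6. Foxn1 differed by -0.40 (SE 0.52; limma adjusted p = 0.9995), with a 95% interval of -1.61 to 0.81. Ovol1, a zinc finger repressor of proliferation in epidermis and follicle, was at 5.87, 3.55 and 3.45 in wild type and at 3.51, 3.59, 3.51 and 3.77 in knockout. Wild type replicate 3 was its lowest array and replicate 1 its highest. Its difference was -0.69 (SE 0.56; limma adjusted p = 0.9995), with a 95% interval of -2.02 to 0.63.

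Among the differentiation genes, Gprc5d, an orphan receptor of keratinizing hair cells, had 4 arrays at the same value of 3.29. It was at 7.02, 3.29 and 3.14 in wild type and at 3.29, 3.29, 3.29 and 2.55 in knockout. The first wild type array was 13.3-fold above the middle of the other 6 arrays, and knockout replicate 4 was the lowest. Knockout minus wild type was -1.38 (SE 0.91; limma adjusted p = 0.9995), with a 95% interval of -3.50 to 0.74.

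Padi3, which deiminates trichohyalin, was the only 1 of the 10 whose genotypes did not overlap. Its values were 6.66, 3.93 and 4.30 in wild type and 3.84, 3.38, 3.83 and 3.84 in knockout, so the lowest wild type and the highest knockout array were 3.93 and 3.84. Over all genes, 0.815% had all knockout arrays below all wild type arrays. The difference was -1.24 (SE 0.61, 95% interval -2.68 to 0.20), with the smallest unadjusted p of the 10, 0.0811, and an adjusted p of 0.9995 in limma.

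Tchh had the largest difference and the widest spread. It was at 11.08, 7.80 and 5.04 in wild type and at 6.87, 5.08, 5.87 and 4.17 in knockout. Wild type replicate 1 was 48.5-fold above the middle of the other 6 arrays, replicate 2 was next, and replicate 3 lay among the lower knockout arrays. The difference was -2.48 (SE 1.34; limma adjusted p = 0.9995), with a 95% interval of -5.61 to 0.66. Its SD among knockout arrays was 1.15, against a median of 0.24 for the 10 genes.

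Every one of the 10 means was lower in knockout, where 48.3% of all genes were, and the median difference was -1.01 against 0.01 over all genes. At an adjusted p under 0.05, limma called none of the 10 and 0.00431% of all genes, and at an unadjusted p under 0.05 it called none of the 10 and 1.88% of all genes. The 95% intervals reached beyond a 2-fold lower level in knockout for 9 of the 10 genes, Shh being the exception, and beyond a 2-fold higher level for 0.

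The size of these differences rested on wild type replicate 1. Without it, 7 of the 10 differences were below 0 and the median was -0.12. Hoxc13, Foxn1 and Ovol1 turned to 0.07, 0.21 and 0.10. Those of Lef1, Gprc5d and Dlx3 were -0.08, -0.11 and -0.24, and those of Msx2, Padi3 and Tchh -0.39, -0.39 and -0.92. The lowest adjusted p was then 0.905 in limma. Leaving out wild type replicate 2 or 3 moved the median away from 0. It was -1.52 without replicate 2 and -1.41 without replicate 3, and without replicate 3 Hoxc13, Ovol1 and Tchh differed by -1.25, -1.12 and -3.94, with no adjusted p of the 10 under 0.376 in limma. Without replicate 1 the intervals lay within 2-fold for 8 of the genes, and those of Foxn1 (-0.66 to 1.07) and Tchh (-3.36 to 1.51) did not. Leaving out the array that was highest in 9 of the 10 also took away wild type spread, the SE of Hoxc13 going from 0.59 to 0.12. These intervals therefore cannot exclude a 2-fold difference between the genotypes.

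**Figure D2:**
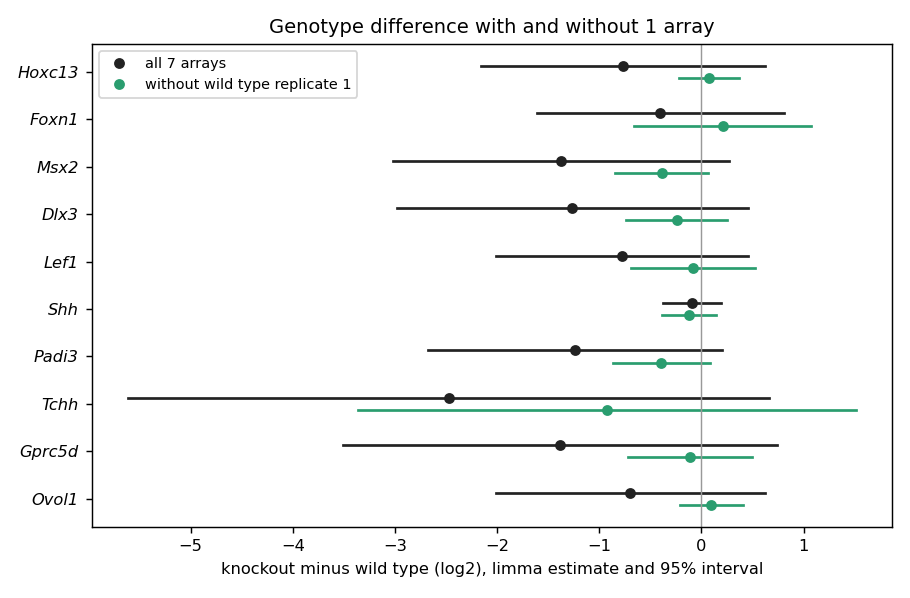
Genotype difference of each gene (knockout minus wild type, log2), as the limma estimate (point) with its 95% confidence interval (line), over all 7 arrays in black and without wild type replicate 1 in green. All 10 estimates are below 0 with all arrays, and 7 are without that array, when 9 of the 10 move closer to 0 and Shh goes from -0.09 to -0.12.

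The excess on wild type replicate 1 was present under both other scalings tried. After quantile normalization the same 9 genes were highest there, 8 of them by at least 1 log2 unit, against 2.19% of all genes. The gap to the middle of the other 6 arrays then ran from 1.14 in Foxn1 to 5.02 in Tchh among the 9 genes and was -0.12 in Shh. After centring on array medians, the 9 genes were again highest on that array.

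Genes that act with Shh did not share the pattern as a group. Among 13 measured hedgehog pathway genes, 8 were lower and 5 higher in knockout, with a median difference of -0.08, and 0 passed the test in limma either adjusted or unadjusted. Without wild type replicate 1, 5 of the 13 were lower and the median was 0.02. The first wild type array was highest in 6 (46.2%), where 25.3% of all genes were. It was at least 1 log2 unit above each other array in 2 (15.4%), against 5.63% of all genes. The 4 with the smallest p were Ihh, a second hedgehog ligand (0.33, SE 0.20), Gli2 and Gli3, transcription factors of the pathway (-0.29, SE 0.18, and -0.40, SE 0.32), and Hhip, a decoy receptor (-0.21, SE 0.18). Ptch1, the hedgehog receptor and itself a target of the pathway, was chosen after its values were seen. Its value was 5.70 on wild type replicate 1, the others ranging from 3.69 to 4.10, whereas Gli1, another target, was at 5.08 and at 4.32 to 5.02.

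Wnt, BMP, Notch, FGF and ectodysplasin genes of the follicle were lower in 12 and higher in 12 of 24, with a median of -0.01 and 0 passing in limma, adjusted or unadjusted. Without wild type replicate 1, 6 of the 24 were lower and the median was 0.08. The first wild type array was highest in 10 (41.7%), where 25.3% of all genes were. It was at least 1 log2 unit above each other array in 6 (25%), against 5.63% of all genes. Nog, a BMP antagonist, differed by 0.37 (SE 0.18), Fgf5, a signal that ends growth, by -0.31 (SE 0.16), Notch1 by -0.71 (SE 0.41) and the receptor Fgfr2 by -0.66 (SE 0.39). Nog was at 2.63, 3.14 and 3.12 in wild type and at 3.53, 3.26, 3.26 and 3.26 in knockout, so its genotypes did not overlap. Of all genes, 1.91% had genotypes that did not overlap in either direction. Ctnnb1, beta-catenin, the partner of Lef1, was at 7.51 on wild type replicate 1 and between 4.00 and 4.94 elsewhere, and the Wnt ligand Wnt10b at 2.46 there and between 2.77 and 2.83 elsewhere. These 2 genes were chosen after their values were seen.

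Other transcription factors of the follicle were lower in 17 and higher in 7 of 24, with a median of -0.14 and 0 passing in limma, adjusted or unadjusted. Without wild type replicate 1, 8 were lower and the median was 0.16. Wild type replicate 1 was highest in 14 of the 24 (58.3%), where 25.3% of all genes were. It was at least 1 log2 unit above each other array in 6 (25%), against 5.63% of all genes. Trps1, a GATA-type repressor, differed by -0.71 (SE 0.34), Dlx4 by -0.30 (SE 0.17), the Hoxc13 neighbour in the cluster Hoxc12 by 0.24 (SE 0.15) and the homeodomain factor Barx2 by -0.43 (SE 0.27). Hoxc12 was lowest on the array where Hoxc13 was highest, at 1.94 against 2.18 to 2.54 elsewhere, and lay below the median of every array. Vdr, the vitamin D receptor, and Cux1, a factor of the inner root sheath, were chosen after their values were seen. On wild type replicate 1 they reached 8.14 and 7.78, while the other arrays ranged from 4.20 to 5.51 and from 4.22 to 5.29.

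The list of inner root sheath and medulla genes, of layers that the matrix gives rise to, also held S100a3, a calcium-binding protein of the hair cuticle. Its genes were lower in 14 of 15, with a median difference of -1.52. Without wild type replicate 1, 10 were lower and the median was -0.14. None passed in limma, adjusted or unadjusted. Krt25 and Krt27, inner root sheath keratins, differed by -2.90 (SE 1.47) and -2.34 (SE 1.28). S100a3 differed by -1.81 (SE 1.08) and Krt72, another inner root sheath keratin, by -2.24 (SE 1.36). Krt25 was at 10.61 on wild type replicate 1 and at 2.74 to 7.14 on the other 6 arrays, and S100a3 at 9.30 and at 3.90 to 4.97. In 13 of the 15, that array was at least 1 log2 unit above each other array, against 5.63% of all genes.

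Hair cortex and cuticle keratins, among them genes that Hoxc13 and Foxn1 regulate, were lower in 14 of 14, with a median of -0.64. Leaving out that array, 9 were lower and the median was -0.06. None passed adjusted in limma, and 2 had an unadjusted p under 0.05, where 0.854% of all genes were lower at that threshold. These were Krt33b (-0.40, SE 0.17, unadjusted p = 0.0436 in the limma fit) and Krt32 (-0.55, SE 0.23, unadjusted p = 0.0481 in the limma fit). Krt32 was at 5.43, 4.53 and 4.68 in wild type and at 4.29, 4.44, 4.42 and 4.19 in knockout, without overlap. Krt34 (-1.71, SE 0.93) and Krt33a (-2.01, SE 1.24) differed by more with more spread, at 10.39 and 8.62 on wild type replicate 1.

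Some lists of cell markers were raised along with the 10 genes on wild type replicate 1, and others were not. On wild type replicate 1, 7 of 7 melanocyte markers and 8 of 8 markers of dividing cells were at their highest of the 7 arrays. Of all genes, 25.3% were highest there. The mean deviations of these 2 lists from the 7-array means were 2.0 and 1.44. Melanocyte markers had deviations of -0.61 to -0.17 in knockout and of -0.38 and -0.19 on the other 2 wild type arrays, and markers of dividing cells of -0.31 to -0.11 and of -0.14 and -0.40. Bulge and outer root sheath markers were highest there in 5 of 8, with a deviation of 0.82, and epidermal markers in 4 of 8, with 0.66. Dermal papilla markers were highest there in 1 of 8 (0.20), T cell markers in 1 of 8 (-0.08) and skeletal muscle markers in 0 of 8 (-0.21). Macrophage markers were highest there in 2 of 5 (0.41), sebaceous markers in 2 of 7 (0.37), fibroblast markers in 4 of 7 (0.66) and adipocyte markers in 1 of 6 (0.22). The melanocyte and dividing-cell counts were the same under both other scalings, while several others moved. After quantile normalization the counts were 0 for macrophage, 2 for fibroblast, 3 for epidermal and 2 for dermal papilla markers. They were 3 for bulge and outer root sheath and 0 for adipocyte markers. After centring on array medians the counts were 4 for macrophage, 5 for fibroblast, 5 for epidermal and 2 for dermal papilla markers. For bulge and outer root sheath markers the count was then 6. The part of these cells in the values of the 10 genes was not tested. Wild type replicate 3 was the lowest array for the epidermal, sebaceous, fibroblast, muscle, adipocyte and macrophage lists. It was also the lowest for the bulge and outer root sheath list (-0.47), the dividing cells (-0.40), the Wnt and related signals (-0.18) and the other transcription factors (-0.26), while the 10 genes had mean deviations of -0.34 on it and -0.73 to -0.18 on the other 5 arrays besides wild type replicate 1.

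**Figure D3:**
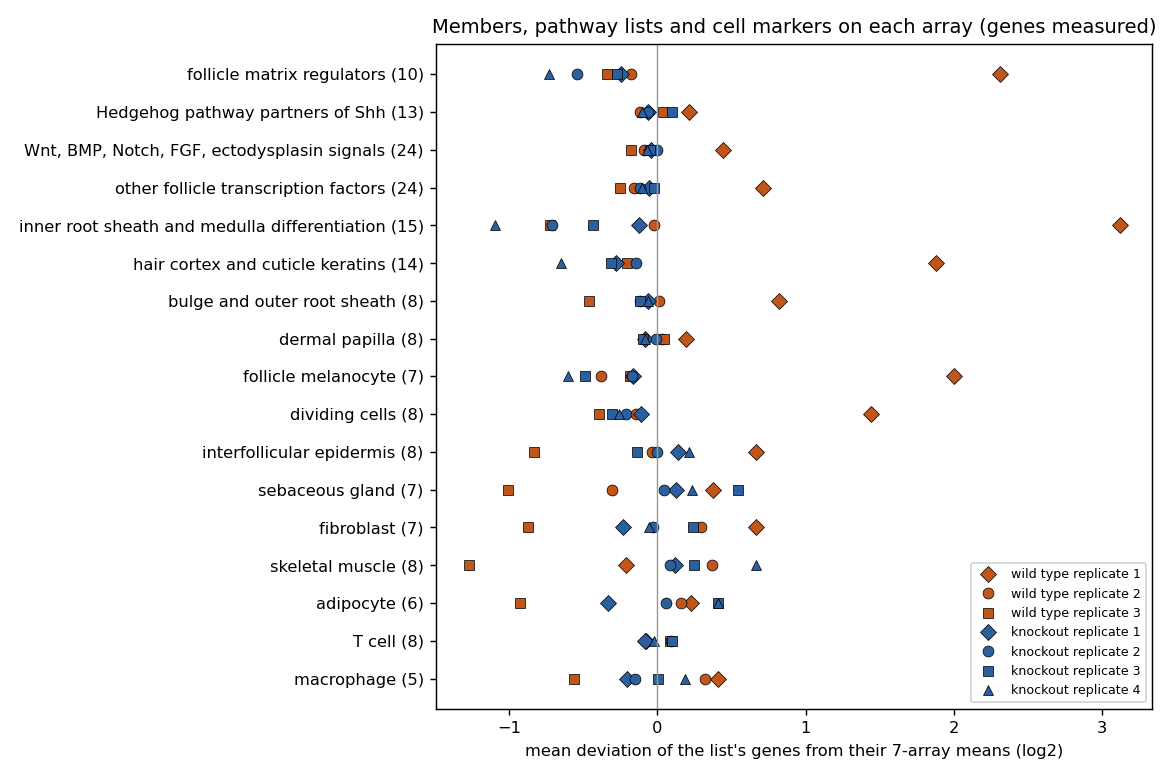
Mean deviation of each list's genes from their 7-array means (log2), 1 point per array, with wild type in orange, knockout in blue and the number of measured genes in parentheses. Wild type replicate 1 stands at 2.31 for the 10 regulators, 3.12 for the inner root sheath and medulla list and 1.88 for cortex and cuticle keratins. It stands at 2.0 for melanocyte markers, -0.08 for T cell and 0.20 for dermal papilla markers.

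Among the 6 remaining arrays, Tchh varied in the same order as the mean of inner root sheath genes. From high to low, wild type replicate 2 was at 7.80, knockout replicate 1 at 6.87, knockout replicate 3 at 5.87, knockout replicate 2 at 5.08, wild type replicate 3 at 5.04 and knockout replicate 4 at 4.17. The mean of the 15 inner root sheath and medulla genes, taken as deviations over these 6 arrays, gave the same order, at 0.50, 0.40, 0.08, -0.19, -0.21 and -0.58. Both genotypes were found at the upper and the lower end. Krt25 followed with 7.14, 5.78, 5.12, 3.84, 4.08 and 2.74, the fourth and the fifth arrays changing places. The genes come from the same arrays and share whatever differs between them, so this order is a description.

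**Figure D4:**
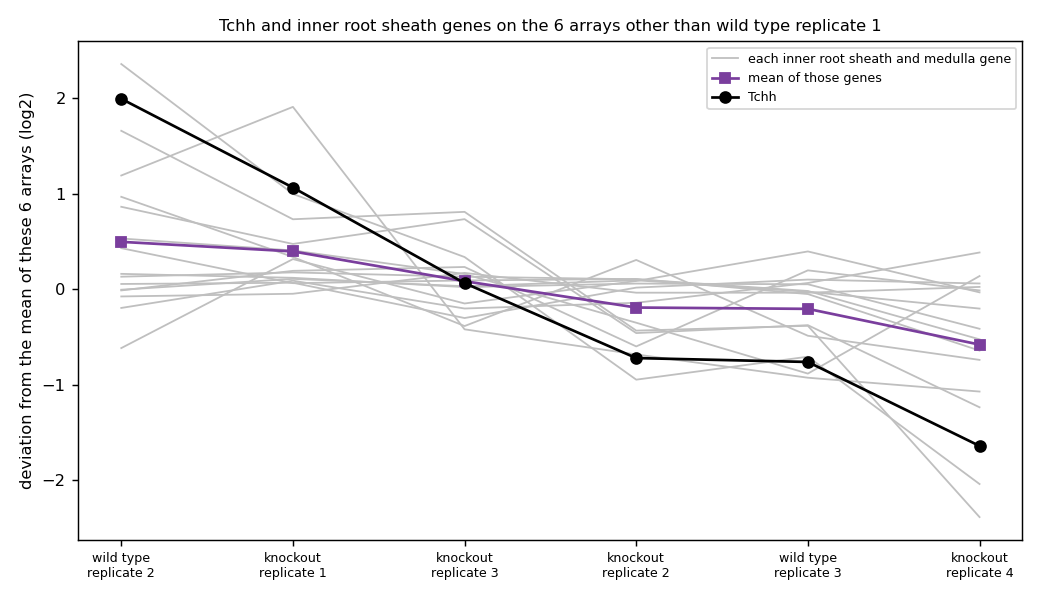
Deviation from the mean of the 6 arrays other than wild type replicate 1 (log2), for Tchh (black), each of 15 inner root sheath and medulla genes (grey) and their mean (purple), with arrays ordered by Tchh. Tchh and the mean fall in the same order, from wild type replicate 2 to knockout replicate 4, and the grey lines cross.

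None of the other 9 genes gave that order, apart from Gprc5d, whose ties leave its order partly unset. Hoxc13, Ovol1 and Dlx3 had SDs of 0.095, 0.11 and 0.25 over the 6 arrays, against 1.33 for Tchh. Foxn1 was highest among them on knockout replicates 3 and 1 (4.82 and 4.71) and lowest on knockout replicate 4 (3.70), and Padi3 was highest on wild type replicate 3 (4.30), where Tchh was low. Knockout replicate 4 was the lowest of all 7 arrays for 6 of the 10 genes, and was also the lowest for the inner root sheath list (-1.10) and the cortex and cuticle list (-0.65).

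The non-member genes closest to the mean profile of the 10, by the root mean square gap of centred log2 values over the 7 arrays, were Slc39a8 (0.13), Gm11563 (0.15), Endou (0.15), Cttn (0.16), Krt86 (0.16), Mapk1ip1l (0.18), Lyg2 (0.18) and Lap3 (0.18). The median gap of all 23175 non-members was 1.04, and among the 10 themselves Hoxc13 had the smallest (0.20), Msx2 came next (0.22) and Shh and Tchh were farthest (0.96 and 1.33). Krt86 is a hair keratin, Cttn encodes the actin-binding protein cortactin and Slc39a8 a metal transporter. Slc39a8 was at 6.84 on wild type replicate 1 and between 3.84 and 4.47 on the other arrays. The likeness is mainly that of 1 array, since without wild type replicate 1 none of these 8 genes was among the 8 closest.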

How the data were processed

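RNA from lesional skin was hybridized to Affymetrix arrays in 4 knockout and 3 wild type samples, grouped by the genotype in the titles. The authors deposited log2 values made with RMA (as usually run, background correction, quantile normalization and median polish), per the submitters' processing notes. Its version, the probe-set definition and any build are not given in the sources used here. Which of the usual steps were run is not known here either, and array SDs of the deposited values ran from 1.17 to 1.67. No detection calls were used. Of 25206 probe sets, 23185 had 1 symbol and 2021 were unnamed here.

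Values were used as deposited. The genotype test was limma 3.58.1 in R 4.3.3 (lmFit, eBayes, two-sided), Benjamini-Hochberg adjusted over the 23185 genes, at 0.05. A fold is 2 to the power of a log2 difference. Lists are described by counts and medians, with no set test. The 10 genes and the lists were chosen with earlier results of these data known, and the motifs after the promoters were seen. Named genes were the 10, Tnfsf4, the 4 of each pathway list with the smallest p and the 8 closest to the mean profile. Those said to be chosen after their values were seen, and Krt14, Krt10, Dcn, Gli1 and Krt71, were named outside that rule. Listed genes without a symbol match were not used. Alternatives covered moderation, a filter on dim genes, scaling, array weights, blocks and left-out arrays. The code of the fit was checked on simulated data with 200 changed genes. Those data had equal spread in both genotypes and no deviating array, unlike the real ones. The check therefore says nothing about the calls made here. Since separate animals are not stated, p-values reflect only the spread among these samples, part of which may be technical. Precision is limited by how few arrays there are. The fit pooled the variance of both genotypes for each gene, although their spread differed. The median SD of the 10 genes was 1.47 within wild type and 0.24 within knockout, against 0.39 and 0.19 over all genes. Figures were drawn with matplotlib 3.10.9.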

Additional observations from a re-analysis of the deposited data

Results flagged for a closer look

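In 11 of 39 named genes, 1 of the 4 knockout arrays lay far from the other 3, by the ratio of its gap to the whole range of the group. Chance gives about 1 such gene in 20, and ties between arrays, which RMA can produce, make the ratio large at small gaps. Knockout replicate 4 was the low array in Lef1 (ratio 0.840, 3.63 against 4.05 to 4.13), Gprc5d (ratio 1, 2.55 against 3.29), Slc39a8 (ratio 0.873), Lyg2 (ratio 0.914), S100a3 (ratio 0.941) and Krt33a (ratio 0.873, 2.35 against 3.29 to 3.43), and the high array in Ihh (ratio 1, 4.74 against 4.64). Knockout replicate 2 was the low array in Padi3 (ratio 0.968, 3.38 against 3.83 to 3.84) and Gli3 (ratio 0.849), and knockout replicate 1 the high array in Tnfsf4 (ratio 0.983) and Nog (ratio 1, 3.53 against 3.26).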

How the results depend on the processing

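None of the 10 genes passed at an adjusted p under 0.05 in limma under any alternative but array weights, where 2 did, Tchh (-2.28, adjusted p = 0.0163) and Shh (-0.21, adjusted p = 0.0334), with 4032 calls over all genes. That run gave wild type replicate 2 a weight of 75.4 against 0.11 for each of the other 2 wild type arrays, and its weights did not converge. All 10 differences were lower in knockout in each run but that one and those without wild type replicate 1, alone or with replicate 3. Signs turned with array weights in Foxn1 (0.48), Lef1 (0.27) and Ovol1 (0.033), and without wild type replicates 1 and 3 in Foxn1 (0.46), Lef1 (0.26) and Ovol1 (0.044). With single arrays left out, differences ran from -1.25 to 0.072 in Hoxc13, -0.84 to 0.21 in Foxn1 and -1.12 to 0.096 in Ovol1, the signs turning without wild type replicate 1. The median of the 10 ran from -1.52 to -0.12, that of inner root sheath genes from -2.23 to -0.14, and those of hedgehog genes from -0.21 to 0.024, of Wnt and related signals from -0.09 to 0.08, of cortex keratins from -0.94 to -0.06 and of other factors from -0.31 to 0.16. The hedgehog median was 0.049 with array weights. Of the 8 closest genes, 0 to 7 were found again without single arrays. Over all genes, the count of 1 fell to 0 with trend and robust moderation, quantile normalization, median centring, the replicate block, the code suffix as a block, without wild type replicates 1 and 3, and in all runs that left out 1 array (0 to 0). At an unadjusted p under 0.05 the count was 436, and 386, 710, 424, 251, 278 and 2024 in the first 6 of these runs. Tnfsf4 turned to -0.059 with quantile normalization, -0.081 with the code number as a random block, and -0.11, -0.18 and -0.14 without knockout replicate 1 and wild type replicates 1 and 2, within -0.18 to 0.38 over single arrays left out. The titles share replicate numbers, but same-numbered arrays did not deviate together (correlations over genes of -0.086, -0.145 and 0.034), so no pairing was assumed, and with the replicate block the median of the 10 was -0.98. The causes of these shifts were not tested.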

Other observations

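Krt74, an inner root sheath keratin that was chosen after its values were seen, was the 1 gene of 15 in its list that was not highest on wild type replicate 1 in the deposited values. After quantile normalization or centring on array medians, all 15 were highest there. As deposited, Krt74 was at 3.82 there and between 2.90 and 3.91 on the other 6 arrays, where Krt71, with which it belongs to the same keratin type, was at 10.53 and between 3.44 and 6.42. Edar, the ectodysplasin receptor, chosen in the same way, was lowest on that array, at 2.71 against 3.39 to 4.13.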
